A study of Homo sapiens with 6 samples.

Results

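The enzymes that make serine from glucose and pass its carbon to folate were examined as a set of 8 genes: PHGDH, PSAT1, PSPH, SHMT1, SHMT2, MTHFD1, MTHFD2 and MTHFD1L. They were taken by symbol from the authors' deposited table of 15794 human genes, and all 8 have a row there. Polyadenylated RNA had been sequenced from eHAP cells, an engineered fully haploid derivative of the near-haploid human line HAP1, which descends from a chronic myeloid leukaemia line. The series holds 6 samples in 2 groups, 3 biological replicates of control cells, labelled wild-type with no gene knocked out, and 3 replicates of cells labelled TFDP1 knockout. The labels give 1 treatment for both groups. Cells that expressed Cas9 received guide RNAs and puromycin resistance on a plasmid, were kept in puromycin from 24 to 72 h, and were harvested on day 5. The sources used here do not say which guides, if any, the control cells received. The knockout samples are described as transfected and selected cells, not as clones. Into each tube of 500000 eHAP cells went 10000 Drosophila S2 cells as a spike-in. TFDP1 encodes DP1, the dimerisation partner with which most E2F factors bind DNA.

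For each gene the table holds the log2 ratio of the groups, the mean level over the samples in log2 CPM (counts scaled to library size), and the likelihood ratio with its p, raw and adjusted. No value per replicate was used here, so library depths and the spread of replicates are unknown, and the authors' p-values carry all of the replicate information. An approximate standard error (SE) was computed as the size of the log2 fold change over the root of the likelihood ratio, and 95% intervals were built from it. In the authors' deposited table TFDP1 itself stood at a log2 fold change of 1.17 and 226 CPM (adjusted p = 1.08e-283). Nothing in the table or the labels says which group is the numerator. Cas9 can disrupt a gene and leave its transcript in place, so the value of TFDP1 does not fix the direction. Positive below means the same sign as TFDP1, that is, higher where TFDP1 transcript was higher, and negative means the opposite sign. RNA came from bulk cultures, in which a change in the mix of cells and a change in RNA per cell cannot be told apart.

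Serine synthesis leaves glycolysis at 3-phosphoglycerate and runs through oxidation, transamination and removal of a phosphate. Serine hydroxymethyltransferases then split serine into glycine and a carbon unit bound to tetrahydrofolate. That unit is oxidised inside mitochondria and leaves as formate, and the cytosol uses it to make thymidylate, purines and, through methionine, methyl donors. The cytosolic enzymes can also run the same steps in either direction. Dividing cells draw heavily on this supply for DNA synthesis, and several of the genes are known targets of ATF4, the transcription factor of the amino acid response.

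Of the 8 genes, 7 were positive at an adjusted p under 0.05 in the authors' deposited table, 0 were negative and 1, SHMT1, was not called. By comparison, 17.3% of all genes in it were positive by the same rule, 22.2% negative and 39.5% called in either direction. Of the called genes 43.9% were positive as deposited and 62.5% after re-centring on the ribosomal protein genes, where all 8 enzymes were positive. At that re-centring 26.8% of all genes were positive and 16.1% negative. The 8 genes are well expressed, and the positive share was 25.4% among the 7897 genes whose level reached the median, 23.5 CPM. Among genes within 0.5 log2 CPM of each enzyme, the positive share was 25.04% for PSPH, 25.6% for MTHFD1L and 25.7% for SHMT1. It was 31.2% for MTHFD1, 34.0% for SHMT2, 36.1% for MTHFD2, 36.2% for PHGDH and 37.1% for PSAT1. The median log2 fold change of the 8 was 0.37, against -0.03 for all genes. The fold changes were modest, from 1.06-fold for SHMT1 to 1.48-fold for PSAT1. By part of the pathway, the 3 serine synthesis genes and the 3 mitochondrial folate genes were all positive. Of the 2 cytosolic folate genes 1 was positive and 1 not called.

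**Figure D1:**
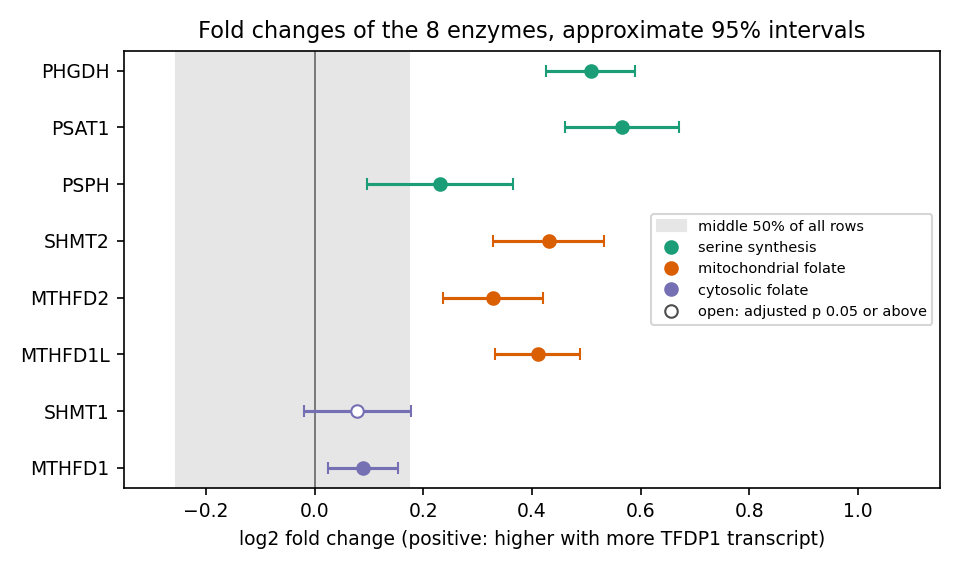
Log2 fold change (horizontal axis) of each of the 8 enzymes (vertical axis) in the authors' deposited table, with approximate 95% intervals as bars and the middle 50% of all genes shaded. The points of PHGDH, PSAT1, PSPH and the 3 mitochondrial enzymes lie to the right of the shaded band, and those of SHMT1 and MTHFD1 lie inside it.

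PHGDH (ENSG00000092621.12, chromosome 1, 119648411 to 119744226 of GRCh38, plus strand) encodes phosphoglycerate dehydrogenase, which commits 3-phosphoglycerate to serine. Its log2 fold change was 0.51 at 400 CPM (adjusted p = 8.12e-32) in the authors' deposited table, with an approximate 95% interval of 0.43 to 0.59, or 1.34- to 1.51-fold. PSAT1 (ENSG00000135069.13, chromosome 9, 78297143 to 78330093, plus strand) encodes the aminotransferase of the next step, which takes its nitrogen from glutamate. It had the largest fold change of the 8, 0.57 at 381 CPM (adjusted p = 2.80e-24) in the authors' deposited table, with an interval of 0.46 to 0.67. Of the genes at or above the median level, 1.57% had a higher log2 fold change than PSAT1, and 2.34% a higher one than PHGDH. Among genes within 0.5 log2 CPM of their own level, the shares were 2.27% for PSAT1 and 4.05% for PHGDH. PSPH (ENSG00000146733.13, chromosome 7, 56011051 to 56051604, minus strand) encodes the phosphatase that releases serine. Its log2 fold change was 0.23 at 56.6 CPM (adjusted p = 0.00347) in the authors' deposited table, with an interval of 0.10 to 0.36. The intervals of PHGDH and PSAT1 overlap each other, and that of PSPH lies below both; differences between genes were not tested. Of the genes at or above the median level, 14.8% had a higher log2 fold change than PSPH. PSPH lost its call with a Bonferroni adjustment over the rows of the table (adjusted p = 1).

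The mitochondrial arm is made of SHMT2, which takes the carbon from serine, MTHFD2, a dehydrogenase and cyclohydrolase that oxidises it, and MTHFD1L, which releases it as formate. SHMT2 (ENSG00000182199.10, chromosome 12, 57229327 to 57234935, plus strand) had a log2 fold change of 0.43 at 294 CPM (adjusted p = 4.82e-15) in the authors' deposited table, with an approximate interval of 0.33 to 0.53. MTHFD1L (ENSG00000120254.15, chromosome 6, 150865549 to 151101887, plus strand) stood at 0.41 and 177 CPM (adjusted p = 6.42e-23) in the authors' deposited table, with an interval of 0.33 to 0.49. For MTHFD2 (ENSG00000065911.11, chromosome 2, 74198562 to 74217565, plus strand) the value was 0.33 at 329 CPM (adjusted p = 6.36e-11) in the authors' deposited table, with an interval of 0.24 to 0.42. The 3 steps of the arm therefore had fold changes of 1.26 to 1.35, and their intervals overlap. Among the genes at or above the median level, 4.12% had a higher log2 fold change than SHMT2 and 4.77% a higher one than MTHFD1L. MTHFD2L, a relative of MTHFD2 that was scarce here at 4.10 CPM, had a log2 fold change of 0.28 in the authors' deposited table and was not called (adjusted p = 0.212). Its interval, -0.06 to 0.62, holds the value of MTHFD2.

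The cytosolic folate enzymes gave the smallest values. SHMT1 (ENSG00000176974.19, chromosome 17, 18327860 to 18363563, minus strand), the cytosolic counterpart of SHMT2, had a log2 fold change of 0.08 at 79.5 CPM (adjusted p = 0.237) in the authors' deposited table, with an approximate interval of -0.02 to 0.18. MTHFD1 (ENSG00000100714.15, chromosome 14, 64388031 to 64463457, plus strand) encodes a single cytosolic protein with dehydrogenase, cyclohydrolase and synthetase activities. It stood at 0.09 and 272 CPM (adjusted p = 0.0212) in the authors' deposited table, with an interval of 0.03 to 0.15. As deposited, the intervals of both lie below those of all 3 mitochondrial genes. The largest change that the interval of SHMT1 allows, 1.13-fold, is smaller than the smallest allowed for SHMT2, 1.26-fold. A test of SHMT2 against SHMT1, or of MTHFD2 and MTHFD1L against MTHFD1, would need values per replicate and was not made. The calls of the cytosolic pair depended on the processing, with p recomputed from the approximate SE. SHMT1 passed after re-centring on the ribosomal protein genes (0.16, adjusted p = 0.00427). It also passed with the trends on length and GC content removed (0.15, adjusted p = 0.00750), while MTHFD1 lost its call there (0.03, adjusted p = 0.476). With the trends removed MTHFD2 stood at 0.25. Intervals built from the same approximate SEs, 0.050 for SHMT1 and 0.047 for MTHFD2, then overlap.

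**Figure D2:**
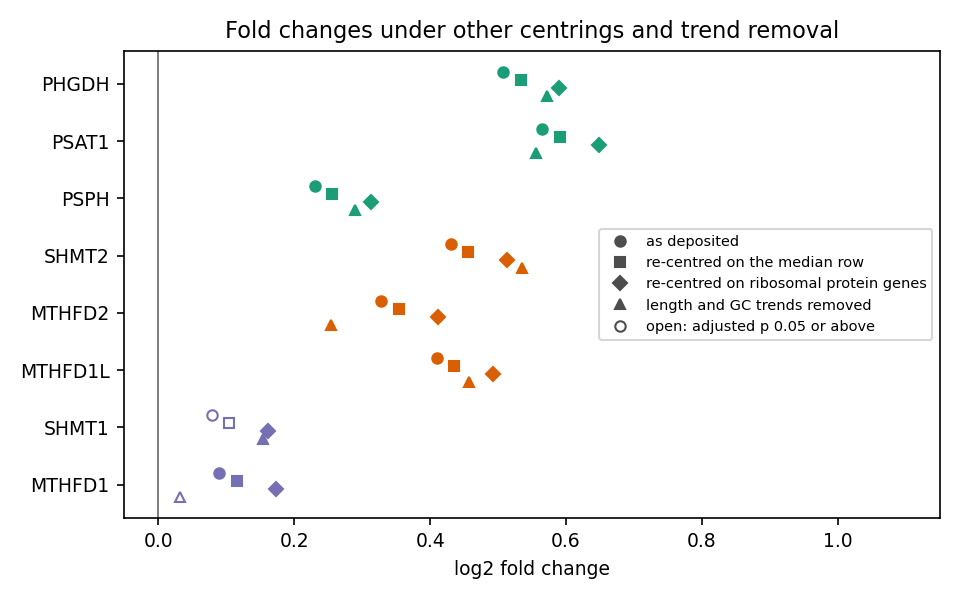
Log2 fold change (horizontal axis) of each enzyme (vertical axis) as deposited, re-centred on the median gene, re-centred on the ribosomal protein genes, and with length and GC trends removed; open symbols have an adjusted p of 0.05 or above. All values are above 0, and at each of the 4 settings SHMT1 and MTHFD1 have the lowest values.

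The approximate SE of the 8 log2 fold changes ran from 0.033 for MTHFD1 to 0.068 for PSPH. For PHGDH it was 0.042, against a median of 0.043 over the 370 genes within 0.5 log2 CPM of it. PSAT1 had 0.054 against 0.042 over 396 genes, and MTHFD1 0.033 against 0.044 over 682. In the plot of level against fold change, 6 of the 8 genes lie between percentiles 92.5 and 97.9 of level, and PSPH and SHMT1 at percentiles 70.3 and 78.5.

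**Figure D3:**
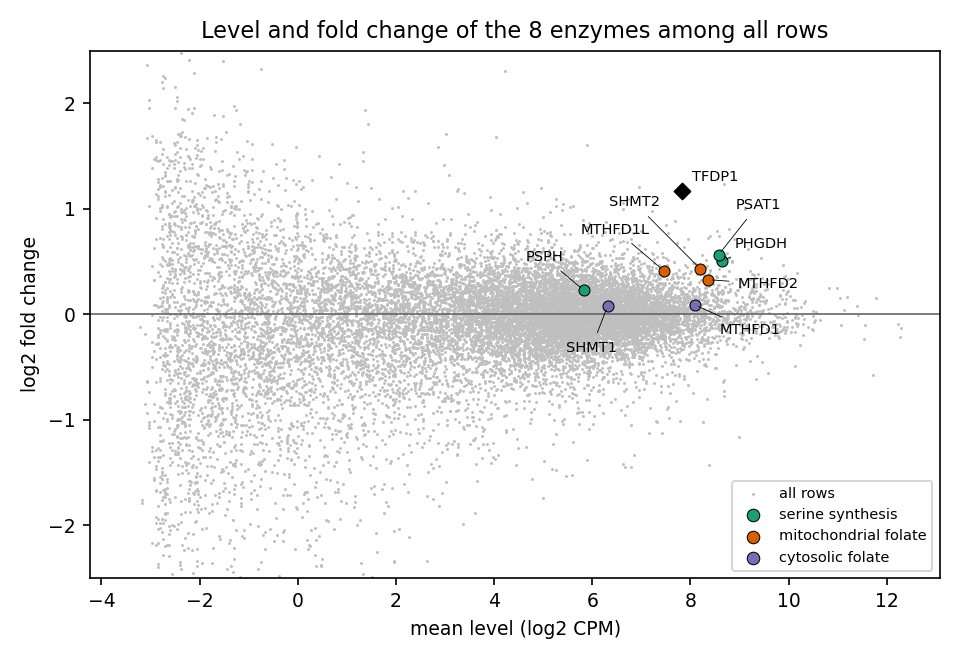
Mean level in log2 CPM (horizontal axis) against log2 fold change (vertical axis, drawn from -2.5 to 2.5, which leaves out 151 genes) for all rows of the authors' deposited table, with the 8 enzymes and TFDP1 marked. PHGDH, PSAT1, SHMT2, MTHFD2 and MTHFD1L sit above most genes of their level, and SHMT1 and MTHFD1 close to 0.

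Levels of different genes were compared per kilobase of the longest annotated transcript. PSAT1 was the most abundant at 174 CPM per kb, followed by PHGDH (126), SHMT2 (86.2), MTHFD2 (73.9), MTHFD1L (49.0), MTHFD1 (39.9), SHMT1 (28.8) and PSPH (26.0). Divided by the length of all exons merged, PHGDH moved from the second place to the fourth, at 43.4 CPM per kb, since its annotated exons cover 9217 bases against 3180 in the longest transcript. MTHFD2, at 67.6, then came before SHMT2, at 60.8, and PSPH, at 20.5, before SHMT1, at 10.9. These are means over both groups, and without values per replicate no neighbours in the order can be separated by their spread.

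**Figure D4:**
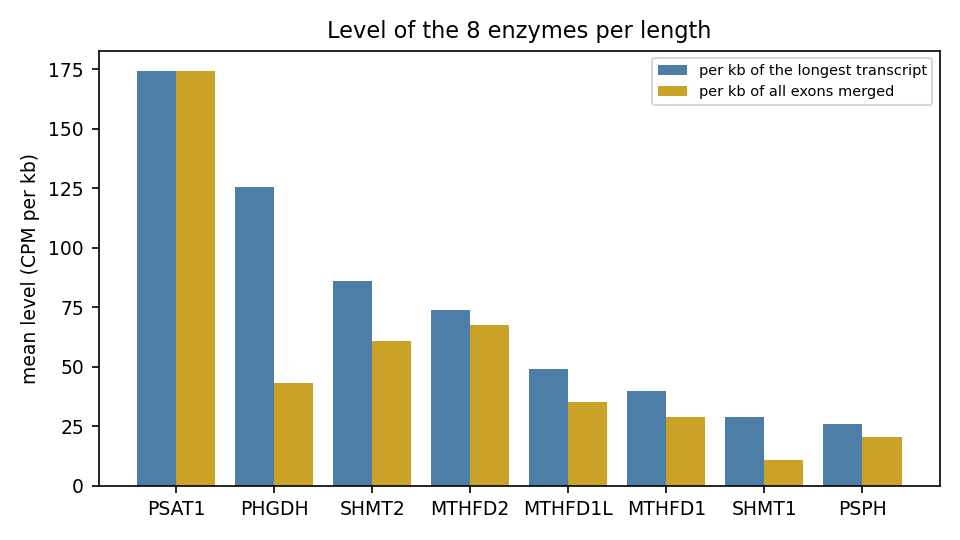
Mean level of each enzyme in CPM per kilobase (vertical axis, from 0), divided by the longest annotated transcript or by all annotated exons merged. PSAT1 is highest on both scales at 174, and the value of PHGDH falls from 126 to 43.4 between them.

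Some of the counts can share reads with other loci, and whether the counting used strand is unknown. GENCODE 29 lists 7 pseudogenes of MTHFD2, 4 of PSAT1 and 1 each of PSPH, SHMT1 and MTHFD1. Exons of 4 of the 8 genes share bases with a protein-coding gene on the opposite strand that is also in the table. For SHMT2 this is NDUFA4L2, at only 1.53 CPM, and for MTHFD1 it is ZBTB25, at 3.94 CPM in the authors' deposited table. SLC4A5, at 32.3 CPM, overlaps MTHFD2, and SMCR8, at 93.3 CPM and a log2 fold change of 0.03 in the authors' deposited table, overlaps SHMT1. None of these 4 was called (adjusted p from 0.108 to 0.937). How many reads counted for SHMT1 could come from SMCR8 was not tested.

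RefSeq promoter windows on GRCh38.p14, from 250 bases before a start to 50 after it, were at hand for 6 of the 8 genes, all but PSPH and SHMT2. They were searched on both strands for the E2F site (TTTCCCGC, TTTGGCGC, TTTCGCGC or TTTGCCGC), the composite site of ATF4 and C/EBP factors (TGATGNAA), the E-box bound by MYC (CACGTG) and the antioxidant response element bound by NFE2L2 (TGACNNNGC). The matches, in 3 of the 6 genes, are shown with the matched letters in capitals and each read along the gene's strand, to give the sequence around them. Of the 6 genes with a window 5 were positive, so the calls say nothing about the matches.
MTHFD1L, ATF4 composite, chr6:150866346-150866375: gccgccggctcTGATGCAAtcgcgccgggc
MTHFD1L, E-box, chr6:150866320-150866349: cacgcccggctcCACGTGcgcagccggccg
MTHFD1, E-box, chr14:64388326-64388355: ccagtccctaagCACGTGggttgggttgtc
MTHFD2, antioxidant response element on the other strand, chr2:74198611-74198640: ttccctcccgGCGCAGTCAccggcgcggtc
MTHFD1L has 4 annotated starts, and the composite match lies 129 or 90 bases before a start for 2 of them and 24 bases after another. The match in MTHFD2 begins 6 bases after its start. The windows of PHGDH, PSAT1 and SHMT1 held none of the motifs, and none of the 6 genes held an E2F match. Over all 27305 genes with a window, 3.99% held the E2F letters, 4.46% the composite site, 8.77% the E-box and 16.1% the antioxidant element. No overlap between the listed motifs occurred at these matches, and a match describes letters only.

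The rest of the pathway was described by 9 lists of related genes, 88 symbols of which 79 had a row. Of these 79 genes, 24 (30.4%) were positive, 23 negative and 32 not called. Their median log2 fold change was 0.05, against 0.37 for the 8 enzymes. By the same rule 17.3% of all genes were positive and 22.2% negative. For the 7897 genes whose level reached the median, the shares were 25.4% and 26.5%.

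**Figure D5:**
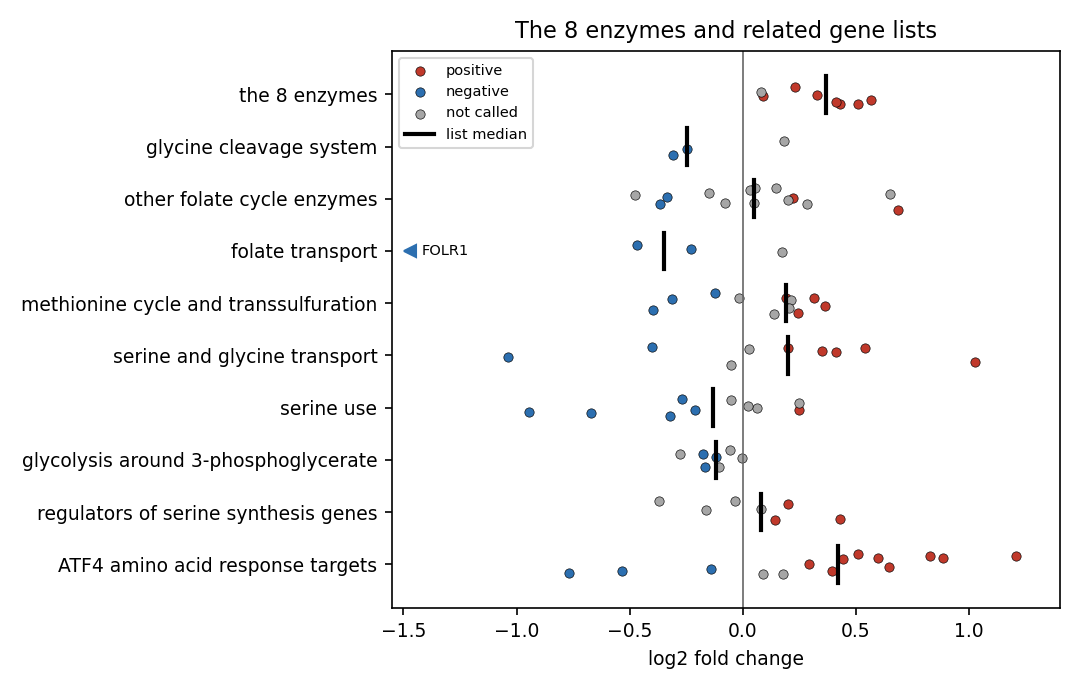
Log2 fold change (horizontal axis) of each gene, one point per gene, in the 8 enzymes and the 9 related lists (vertical axis), coloured by the call in the authors' deposited table at an adjusted p of 0.05, with the list median as a bar. The 8 enzymes and the ATF4 targets have the highest medians, 0.37 and 0.42; FOLR1, at -3.83, lies off the axis and is drawn as an arrow.

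Carriers of serine, glycine and related amino acids gave 5 positive and 2 negative genes of 9, with a median of 0.20. The serine and neutral amino acid carrier SLC1A4 stood at 1.03 on the log2 scale, or 2.04-fold (adjusted p = 1.09e-20) in the authors' deposited table. SLC38A2, a sodium-coupled carrier of small neutral amino acids, stood at 0.54 (adjusted p = 1.14e-24) and its relative SLC38A1 at 0.35 (adjusted p = 2.14e-09) in the authors' deposited table. The 2 negative genes were SLC7A10 (-1.04) and SFXN2 (-0.40), both below 9 CPM in the authors' deposited table and named after their values were seen. SFXN1, which carries serine into mitochondria, was not called at 0.03 (adjusted p = 0.641) in the authors' deposited table. It too was named after its value was seen.

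The folate cycle beyond the 8 enzymes had calls on both sides. Of its 14 other enzymes 10 were not called, 2 were positive and 2 negative, and their median was 0.05. Thymidylate synthase TYMS, which consumes methylene-tetrahydrofolate, had a log2 fold change of 0.69 (adjusted p = 9.74e-25) in the authors' deposited table. MTFMT, which formylates the mitochondrial initiator tRNA, was negative at -0.37 in the authors' deposited table. GART and ATIC, the folate-using enzymes of purine synthesis, were not called, at 0.05 each in the authors' deposited table; they too were named after their values were seen. The glycine cleavage system feeds the same mitochondrial folate pool from glycine. Of its 4 listed genes 3 had a row. Of these 2 were negative, GCSH at -0.31 and DLD at -0.25 in the authors' deposited table. With Bonferroni adjustment 0 were negative. DLD is also a subunit of other dehydrogenases. GLDC had no row, and AMT, at 1.68 CPM, was not called at 0.18 (adjusted p = 0.660) in the authors' deposited table. GLDC and AMT were named after the values were seen. Folate carriers gave 3 negative genes of 4, the reduced folate carrier SLC19A1 at -0.23, the proton-coupled carrier SLC46A1 at -0.47 and the receptor FOLR1 at -3.83 in the authors' deposited table. FOLR1 was scarce, at 2.72 CPM. The remaining carrier, SLC25A32, was not called at 0.17 and 56.8 CPM (adjusted p = 0.0777) in the authors' deposited table, and was named after its value was seen. After re-centring on the median gene or on the ribosomal protein genes 1 of the 4 was positive.

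In the methionine cycle and transsulfuration 4 of 11 genes were positive and 3 negative, with a median of 0.19. MAT2A, which makes S-adenosylmethionine, was at 0.36 (adjusted p = 1.34e-36) in the authors' deposited table, with an interval of 0.31 to 0.42. AHCY, which hydrolyses S-adenosylhomocysteine, was negative at -0.31 (adjusted p = 1.64e-17), and its relative AHCYL2 at -0.40, in the authors' deposited table. Around the branch point, glycolytic enzymes before and after 3-phosphoglycerate gave 3 negative genes of 7 and 0 positive. Their median was -0.12. PGK1 (-0.17) and PGAM1 (-0.18), which make and use 3-phosphoglycerate, and ALDOA (-0.12) were the negative genes in the authors' deposited table. These calls were lost with re-centring on the ribosomal protein genes, where 0 of the 7 were negative and 1 positive. With re-centring on the median gene, or with the trends removed, 1 was negative.

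ATF4, whose protein activates several of the serine genes, had a log2 fold change of 0.43 at 385 CPM (adjusted p = 6.27e-16) in the authors' deposited table, next to 0.43 for SHMT2. ATF4 is known to be regulated mainly in translation, which these data do not measure. Of 14 other genes of the amino acid response 9 were positive and 3 negative, with a median of 0.42. The cystine transporter SLC7A11 stood at 1.21, asparagine synthetase ASNS at 0.88 and the tRNA exporter XPOT at 0.44 in the authors' deposited table. ATF3 was at -0.53, VLDLR at -0.77 and ALDH18A1 at -0.14 in the authors' deposited table, all 3 called negative and named after their values were seen. Of 7 known regulators of serine synthesis genes 3 were positive and 0 negative, where 17.3% of all genes were positive and 22.2% negative. Besides ATF4 the positive regulators were NFE2L2, the oxidative stress factor, at 0.20 and MYC at 0.14 (adjusted p = 0.0317) in the authors' deposited table. The positive count was 2 at an adjusted p under 0.01. It was 1 with Bonferroni adjustment or with a minimum of 1.2-fold.

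Markers of other cell types were also called. Over all genes 39.5% were called, 17.3% positive and 22.2% negative. Of 5 epithelial markers 3 had a row, and all 3 were negative, KRT8 at -2.94, EPCAM at -4.18 and KRT18 at -0.52 in the authors' deposited table, at levels of 0.515 to 40.0 CPM. Fibroblast markers gave 2 negative of 3 with a row (of 7), THY1 at -2.66 and COL1A1 at -0.28, and neuronal markers 1 positive, SYP at 1.71, and 1 negative, TUBB3 at -1.13, of 4 in the authors' deposited table. Of 10 blood markers, the lineage of the parental line, 5 had a row, at 0.177 to 15.3 CPM, with KIT at -0.98 and ITGA2B at 0.49, both called, in the authors' deposited table. Whether a shift in the mix of cells had a part in the values of the 8 enzymes was not tested.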

How the data were processed

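The series compares 3 control and 3 TFDP1 knockout samples of eHAP cells, sequenced as polyadenylated RNA, with groups taken from the sample titles. Tools named, with no version, in the submitters' processing notes are Trimmomatic, HISAT2, edgeR and featureCounts, and the builds are dm6 and hg38. The log2 fold changes and log2 CPM values are those the authors deposited, made with edgeR per the submitters' processing notes; the scaling of libraries, by human or spike-in reads, is not given in the sources used. A score, the likelihood ratio, is also in the authors' deposited table, and the raw p-values match a chi-square on 1 degree of freedom of it. The authors' adjusted p-values differ somewhat from a Benjamini-Hochberg adjustment over the rows listed. For PSPH they are 0.00347 and 0.00293. The authors' p-values and adjusted p-values come from a fit across all genes.

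Genes were called at the authors' adjusted p under 0.05, with no new test across samples. Alternatives were a threshold of 0.01, adjustment over the rows listed (Benjamini-Hochberg or Bonferroni), a minimum of 1.2-fold, 2 re-centrings, and lowess trends (span 0.3) on transcript length and GC content removed. For the last 3, p was recomputed from the approximate SE. The re-centring and adjustment were tested on simulated data with known SEs; the approximation of the SE and the trend removal were not. GENCODE 29 matched 14777 genes (93.6%) by symbol. The members and the 9 related and 4 marker lists were chosen with earlier results of these data known. Named genes are TFDP1, the 8 enzymes, ATF4, MTHFD2L, TYMS, overlapping genes and up to 3 called genes per list with the smallest p; others are marked in the text, and some genes the rule names are not reported here. The level band of 0.5 log2 CPM was added after seeing the data. Protein sequences were not analysed here. Python 3.11.15, pandas 2.3.3, numpy 2.4.6, scipy 1.17.1, statsmodels 0.14.6 and matplotlib 3.10.9 were used.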

Additional observations from a re-analysis of the deposited data

How the results depend on the processing

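The count of positive genes among the 8 enzymes was 7 as deposited and ranged from 5 to 8 over the 7 alternatives, with 0 negative in each. It was 6 at an adjusted p under 0.01, where MTHFD1 was lost, 5 with Bonferroni adjustment and 5 with a minimum of 1.2-fold, where PSPH and MTHFD1 were lost. It was 8 re-centred on the ribosomal protein genes, and 7 with trends removed, where SHMT1 entered and MTHFD1 left. PHGDH, PSAT1, SHMT2, MTHFD2 and MTHFD1L passed under each of these alternatives, and the log2 fold change of PSAT1 ranged from 0.56 to 0.65 and that of MTHFD2 from 0.25 to 0.41. Over all genes, positive and negative calls numbered 2738 and 3506 as deposited, 1030 and 1434 with Bonferroni adjustment and 1642 and 2418 with the fold minimum. Re-centring on the ribosomal protein genes, a log2 shift of 0.08 (their median is -0.08), took the positive share of calls from 43.9% to 62.5%. Of 126 counts of the related lists under the alternatives, 97 stayed within 1.5 times the deposited count and 29 did not. The 97 include counts of 0 that stayed 0. They also include the Benjamini-Hochberg adjustment over the rows listed, which changed no list count, so the tally is a weak measure of stability. Re-centred on the ribosomal protein genes, positive folate enzymes went from 2 to 5 and positive serine-using genes from 1 to 3. No paired analysis was possible because the table holds 1 value per gene and none per replicate; for the same reason no replicate could be left out and no other normalization of counts was run. Depth is unknown, and the approximate SE sets the precision.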

Other observations

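Of the genes that use or break down serine, 10 had a row in the authors' deposited table, and 1 was positive, 5 were negative and 4 were not called, where 17.3% of all genes were positive and 22.2% negative. Their median log2 fold change was -0.13. SERINC genes, named for a proposed role in placing serine in membranes, made up 3 of the 5 negative calls, and SERINC2 stood at -0.67 and SERINC1 at -0.27 in the authors' deposited table. SERINC3, also in the list, was not called at 0.02 and 62.2 CPM (adjusted p = 0.878) in the authors' deposited table. SDSL, related to serine dehydratase, was at -0.94 and 5.70 CPM in the authors' deposited table. PTDSS2, which makes phosphatidylserine, was negative at -0.32, and SPTLC2, a subunit of the enzyme that starts sphingolipid synthesis from serine, was positive at 0.25 in the authors' deposited table. PTDSS2, SPTLC2 and SERINC3 were named after their values were seen. With length and GC trends removed 0 of the 10 were positive and 5 negative, against 18.1% and 20.2% of the 14777 annotated genes. Re-centred on the ribosomal protein genes 3 were positive and 4 negative, against 26.8% and 16.1% of all genes, so the positive share was close to that of all genes.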
